A study of Homo sapiens with 4 samples.

Results

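The proteasome genes were examined in TPC1 cells, an established human papillary thyroid carcinoma line that carries the CCDC6-RET rearrangement, after 6 h and 24 h of treatment with the RET inhibitor BLU6864. Members were the protein-coding rows of the deposited count table whose symbol starts with PSM, a letter from A to G, and a digit. This rule found 51 rows under 49 symbols, of 20372 rows in all. PSMA8, a testis-restricted alpha subunit, PSMB11, a thymus-restricted beta subunit, and the second rows of PSMA1 and PSMA2 had 0 counts in all 4 libraries. The remaining 47 rows passed the filter on low counts, and 1 of them, PSMC3IP, is a meiotic recombination protein and no proteasome subunit. The counts below therefore cover 46 proteasome genes, and PSMC3IP is described apart.

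There were 2 libraries at each time point, all from cells under BLU6864, and nothing in the labels says whether the 2 libraries came from separate cultures, so the P values measure the spread between these libraries, which may be technical. The labels give a dose of 100 µM, whereas the methods give a dose in the nanomolar range. In the labels the words re-analysis stand beside both 24 h libraries only, so time and any difference in handling that this marks cannot be told apart, nor, without a vehicle library here, can time under the compound and time in culture. Library totals were between 23917056 and 27457040 counts. PAX8, a thyroid transcription factor, had 19124 to 22978 counts in each library, but NKX2-1 and TSHR, which also define thyroid follicular cells, had 0 counts in every library, and TG, the thyroid hormone precursor, had 186 and 245 counts at 6 h and 98 and 111 at 24 h. FOXE1, another thyroid factor, had 273 and 279 at 6 h and 462 and 556 at 24 h. Of 6 epithelial markers, KRT8 and KRT18 had at least 856 counts in every library, KRT7 had 187 and 267 at 6 h and 420 and 415 at 24 h, KRT19 had 100 and 125 and then 37 and 40, and EPCAM and CDH1 had at most 11 in any library. Among 10 markers of white blood cells, PTPRC, CD3E, CD79A, MS4A1, LYZ, TYROBP and CD52 had at most 5 counts in any library. The summed count of the 10 was 4519 and 4852 at 6 h and 2693 and 2837 at 24 h. It lay mostly on CD68, which cells with lysosomes share, and CD14 had 47 and 41 counts at 6 h and 85 and 91 at 24 h. The part of such cells in the results was not tested beyond these counts.

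The 26S proteasome degrades proteins tagged with ubiquitin. Its 20S core is a barrel of alpha and beta rings with catalytic sites on 3 beta subunits. Its 19S regulatory particle, made of a base with a ring of ATPases and a lid, binds, unfolds and admits the substrate. Cells exposed to interferon can replace the catalytic beta subunits PSMB5, PSMB6 and PSMB7 with the immunoproteasome subunits PSMB8, PSMB9 and PSMB10, and other complexes, such as the PA28 caps, can open the gate of the 20S core in place of the 19S particle.

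The subunits of the 26S proteasome that the name rule found were lower at 24 h than at 6 h, almost without exception. Of the 31 tested genes for the constitutive 20S core and the 19S particle, 30 fell with an adjusted P under 0.05 by edgeR, 0 rose, and PSMA2 did not pass the test. Of all 12876 genes tested, 32.6% fell and 33.0% rose at this threshold. The methods used a fold cutoff of 0.5 on the log2 scale together with an unadjusted P below 0.01. Past both, 27 of the 31 fell, against 17.7% of all genes that fell and 17.4% that rose. With the trend of the fold change on transcript length and GC content removed over all genes, an alternative chosen after seeing the data, 29 of the 31 still had an adjusted P under 0.05 by edgeR, but 17 passed both cutoffs. Of the 12717 genes with a length and GC value, 3781 (29.7%) fell at that threshold and 2035 past both cutoffs in that fit. In all 31, both 24 h libraries were below both 6 h libraries, which was so for 40.8% of all genes tested, and 41.0% of all genes had both 24 h libraries above. The median log2 fold change of the 31 genes was -0.68, which leaves 62.5% of the 6 h level, with an interquartile range of -0.78 to -0.55, against a median of 0.003 and an interquartile range of -0.37 to 0.37 over all genes tested. In bulk RNA, fewer cells with these transcripts and less of the transcripts per cell cannot be told apart.

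**Figure D1:**
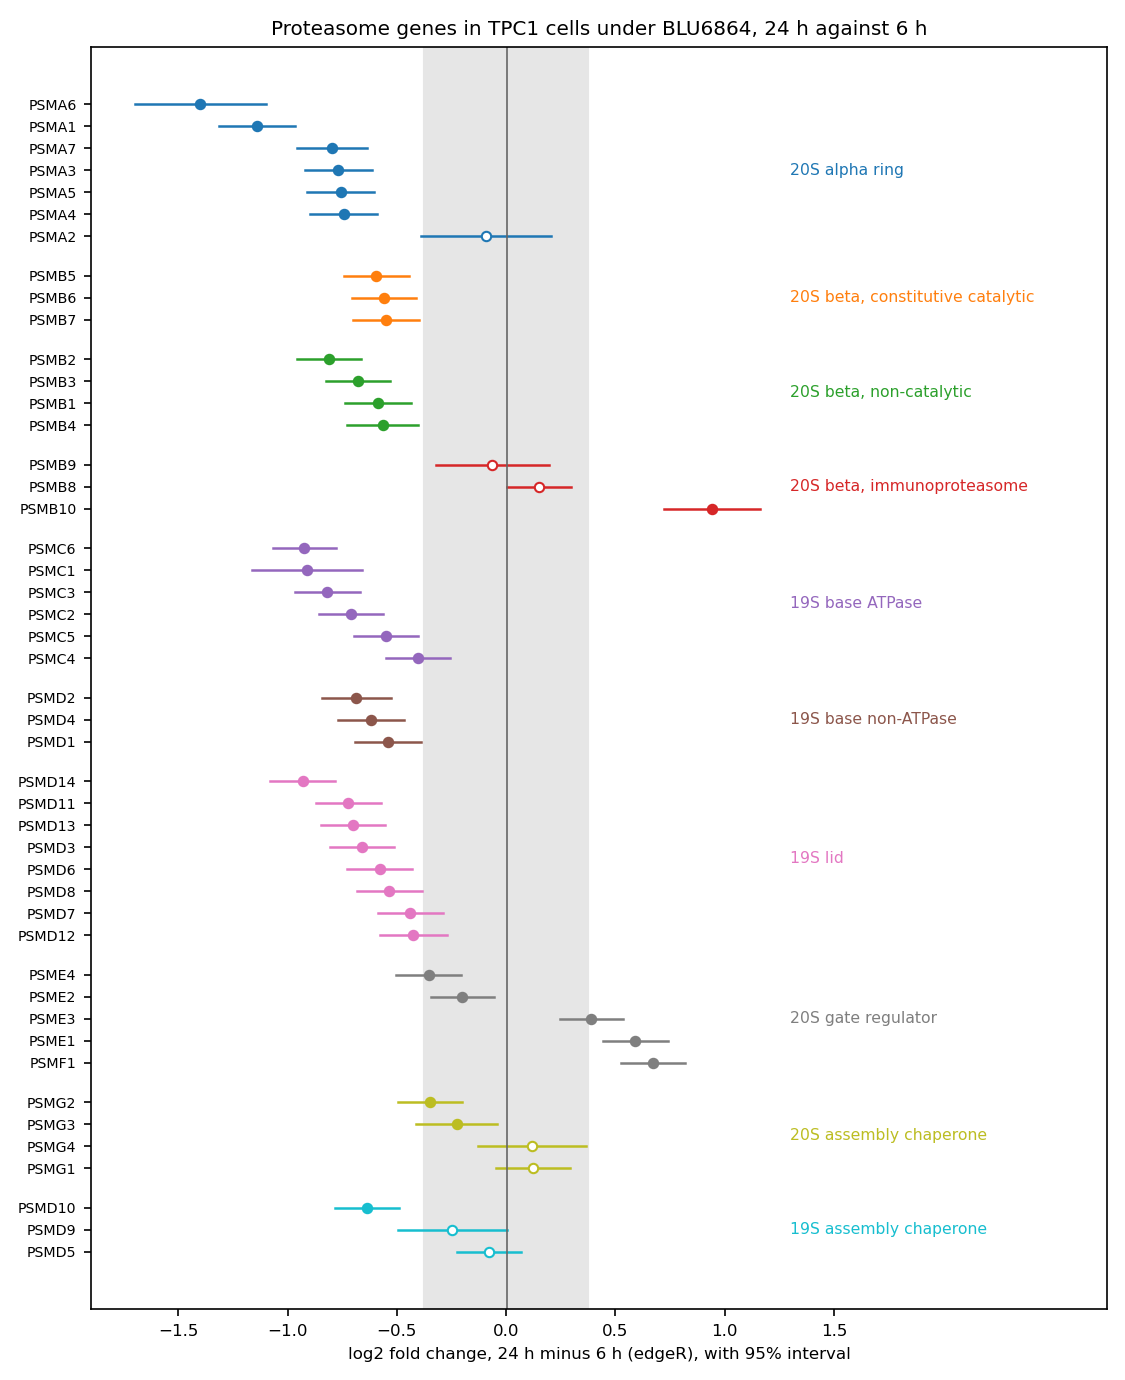
Log2 fold change at 24 h against 6 h for the 46 proteasome genes, grouped by subcomplex, with points for the edgeR estimate and lines for its 95% interval; filled points have an adjusted P under 0.05, and the grey band with its line is the interquartile range and median of all genes tested. The estimates of the constitutive 20S and the 19S subunits sit to the left of the band except for PSMA2, while PSMB10, PSME1, PSME3 and PSMF1 sit to the right of the median.

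The share of all library counts that fell on the 46 genes was 0.812% and 0.837% at 6 h and 0.559% and 0.541% at 24 h, a ratio of 0.667. For the 14 constitutive 20S genes the share was 0.381% and 0.414% at 6 h and 0.245% and 0.24% at 24 h. The 17 genes of the 19S particle under the name rule held 0.332% and 0.323% at 6 h and 0.208% and 0.197% at 24 h. Both particles thus lost share in near equal proportion, with ratios of 0.61 and 0.619. The widest 95% Wilson interval around any of these shares was ± 0.0036 percentage points, for counting error only.

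The alpha ring forms the outer wall and the gate of the 20S core. The median over its 7 genes was -0.77 on the log2 scale, and 6 of them fell. PSMA6 had the largest fall, from normalised read counts of 403 and 626.5 at 6 h to 183 and 208 at 24 h (log2 fold change -1.40 ± 0.15, ± being the SE throughout). That rank rests on one library, since without 6 h replicate 2 PSMA6 was at -1.04 and PSMA1 at -1.15. PSMA1 fell from 1061 and 1057 to 502 and 459, or to 45.4% of the 6 h level. Per kb of transcript, both stood below PSMA3, PSMA4, PSMA5 and PSMA7. Both share table positions with another row, PSMA1 with its own second row and COPB1, and PSMA6 with KIAA0391. PSMA3 also shares positions, with C14orf37, as do 20 of the 47 member rows with counts in all. How reads on shared positions were counted is not given in the sources used here. PSMA7 had 14327 and 15751 at 6 h and 8872 and 8413 at 24 h (log2 fold change -0.80 ± 0.08). PSMA3 went from 6021.5 and 6817 to 3737 and 3805, a log2 fold change of -0.77 ± 0.07. PSMA5 went from 6698 and 7440 to 4152.5 and 4213, a log2 fold change of -0.76 ± 0.07. These 3 genes changed by nearly the same factor, and PSMA4 was like them, with 9175 and 10014 at 6 h and 5741 and 5715 at 24 h (log2 fold change -0.74 ± 0.07). PSMA2 was counted at only 140 and 138 at 6 h and 133.5 and 127.5 at 24 h, and its log2 fold change of -0.09 had a 95% interval that reached from -0.40 to 0.21. Its row also overlaps a second PSMA2 row and MRPL32, so its level is uncertain. Adjusted P values of the 6 genes that fell ranged from 5.084e-12 to 3.749e-09 by edgeR.

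The catalytic beta subunits fell together. PSMB5, the chymotrypsin-like subunit, had 7747 and 8135 normalised counts at 6 h and 5314 and 5197 at 24 h (log2 fold change -0.60 ± 0.07). PSMB6, the caspase-like subunit, had 4570 and 4821 at 6 h and 3252 and 3120 at 24 h (log2 fold change -0.56 ± 0.07). PSMB7, the trypsin-like subunit, had 8966.5 and 9460 at 6 h and 6207 and 6386 at 24 h (log2 fold change -0.55 ± 0.07). All 3 were thus left at 66.2% to 68.3% of the 6 h level. Their times did not overlap, as in the 40.8% of all genes tested that were below in both 24 h libraries. The 4 constitutive beta subunits without a catalytic site also fell, by 0.56 to 0.81 on the log2 scale. PSMB2 had the largest fall of these, from 6762 and 6708 to 3824 and 3858.5. PSMB3 went from 5610 and 5995 to 3700 and 3556, and PSMB1 from 8361 and 9077 to 5822 and 5783. PSMB4 was the most abundant member per length at both times and went from 18642 and 20476 to 13187 and 13261. Adjusted P values of these 7 genes ranged from 1.21e-10 to 5.928e-07 by edgeR.

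Every one of the 17 genes of the 19S particle under the name rule fell. ADRM1, a ubiquitin receptor of this particle outside the rule, did not pass the test (log2 fold change -0.13). Over the 6 ATPases of the base, which unfold the substrate, the median change was -0.76 on the log2 scale, and -0.47 with the length and GC trend removed. PSMC6 fell from 2688 and 2758 to 1442 and 1430.5, a log2 fold change of -0.92 ± 0.07. PSMC1 fell by a like factor, from 292.5 and 331 to 171 and 161, with a log2 fold change of -0.91 ± 0.12. The v44 annotation names 13 pseudogenes after PSMC1, 6 after PSME2, 4 after PSMA6, and 3 each after PSMA2 and PSMD10. Other members have fewer or none, and the part of pseudogenes in the counts was not tested. PSMC3 had 4567 and 4324 at 6 h and 2598 and 2443 at 24 h, and PSMC2 had 2905 and 2844 at 6 h and 1820 and 1694 at 24 h. PSMC5 went from 2700 and 2658.5 to 1912 and 1748. PSMC4 fell least among the ATPases, to 75.6% of the 6 h level. Adjusted P values of the 6 ranged from 7.286e-12 to 1.685e-05 by edgeR.

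The base also holds PSMD1, PSMD2 and PSMD4, which bind ubiquitin or the factors that carry it. PSMD2 had 15504 and 14326 normalised counts at 6 h and 9525.5 and 9026 at 24 h, PSMD4 had 6794.5 and 6396 and then 4511 and 4080, and PSMD1 had 5567 and 5020.5 and then 3726 and 3542. Their log2 fold changes were -0.69, -0.62 and -0.54. None of the 3 had overlapping times, and 40.8% of all genes tested also had both 24 h libraries below both 6 h libraries. In the lid, PSMD14, the enzyme that removes ubiquitin chains from the substrate as it enters, fell most, from 7075 and 6970 to 3815 and 3545 (log2 fold change -0.93 ± 0.07). The scaffold subunits of the lid followed. PSMD11 went from 4537 and 4353 to 2604 and 2784, PSMD13 from 7099 and 7286 to 4373 and 4486, and PSMD3 from 6471 and 6356 to 4139 and 3978. PSMD6 went from 1587 and 1526 to 1050 and 1033.5, and PSMD8 from 5907 and 6427 to 4282 and 4227. PSMD7 and PSMD12 fell less, by 0.44 and 0.43 on the log2 scale, and missed the fold cutoff of the methods. Adjusted P values of the base and lid genes ranged from 1.166e-11 to 1.715e-05 by edgeR.

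Within a time point, the 20S and the 19S genes did not lie at the same offset between replicates. At 6 h, 11 of the 14 constitutive 20S genes were higher in replicate 2, with a median log2 difference of 0.11, and 4 of the 17 19S genes were, with a median of -0.05. At 24 h the medians were -0.008 and -0.08. These offsets are smaller than the medians of -0.71 and -0.66 that separate the times. With the length and GC trend removed, the median of the 31 genes was -0.54. Single values moved by over 1.5 times for PSMC6 (-0.46), PSMC2 (-0.39), PSMA3 (-0.39), PSMA5 (-0.46), PSMD6 (-0.37), PSMD7 (-0.25) and PSMD12 (-0.13, edgeR adjusted P 0.121), and PSMA2 changed sign, to 0.29.

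**Figure D2:**
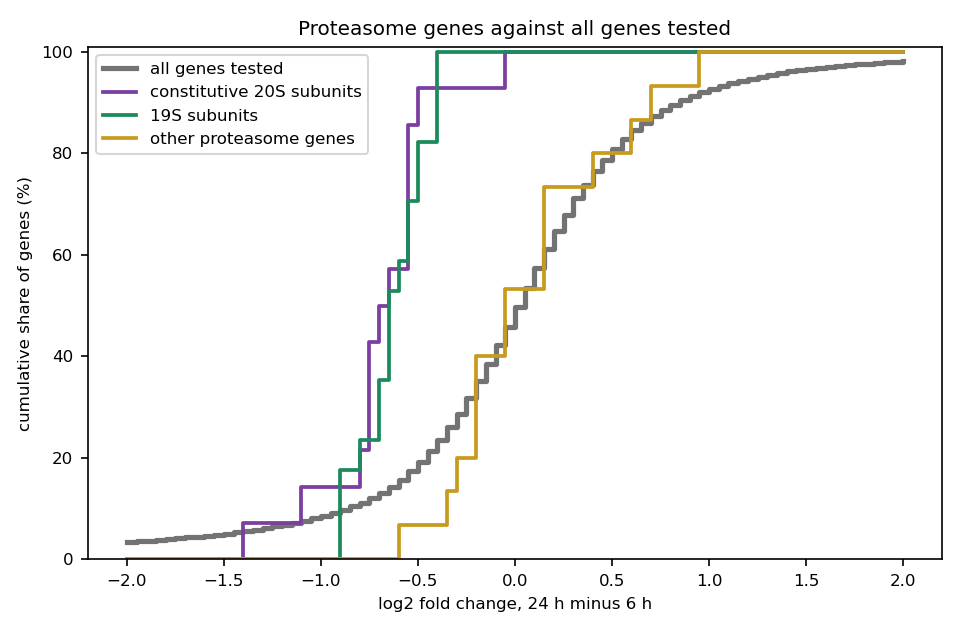
Cumulative share of genes (%) by log2 fold change at 24 h against 6 h, for the 14 constitutive 20S subunits, the 17 subunits of the 19S particle, the 15 other proteasome genes, and all 12876 genes tested. The 20S and 19S curves rise to the left of the curve of all genes, whereas the other proteasome genes spread to both sides of 0.

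Of the 3 immunoproteasome subunits, PSMB10 rose and PSMB8 and PSMB9 did not pass the test. A single call among 3 is near the 33.0% of all genes that rose, so these genes are described one by one. PSMB10 had 249 and 227 normalised counts at 6 h and 474 and 441 at 24 h, and it rose by a log2 fold change of 0.94 ± 0.11, which is 1.92-fold (edgeR adjusted P 1.502e-08). The 2 times did not overlap. PSMB8 had 3461 and 3590 at 6 h and 4049 and 3771 at 24 h (log2 fold change 0.15 ± 0.07, edgeR adjusted P 0.0692). Its libraries did not overlap, but it missed the threshold. PSMB9 had 280 and 272.5 at 6 h and 302 and 227 at 24 h (log2 fold change -0.06 ± 0.12), and its times overlapped. The value was -0.28 without 24 h replicate 1 and 0.14 without 24 h replicate 2. By the hg19 positions of the table, PSMB10 lies on chromosome 16 from 67968405 to 67970990 and overlaps the row CTC-479C5.12. PSMB8 (32808494 to 32812480) and PSMB9 (32811913 to 32827362) overlap each other on chromosome 6, and PSMB9 also overlaps TAP1, so the reads of all 3 may have been split. The edgeR adjusted P of PSMB8 was 0.0313 with upper quartile scaling and 0.0386 with the length and GC trend removed. With library size alone it was 0.201, and by DESeq2 the adjusted P was 0.124, so the call depended on the setting.

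Each immunoproteasome subunit was set against the constitutive subunit it replaces, as counts per kb of transcript in the same library. The ratio of PSMB10 to PSMB7 was -5.16 and -5.37 on the log2 scale at 6 h and -3.70 and -3.85 at 24 h, a difference of 1.49 or 2.81-fold. The ratio of PSMB8 to PSMB5 was -1.27 and -1.29 at 6 h and -0.50 and -0.57 at 24 h, a difference of 0.74 or 1.67-fold. For PSMB9 and PSMB6 it was -4.33 and -4.45 at 6 h and -3.73 and -4.09 at 24 h, a difference of 0.48. All 3 ratios were higher in both 24 h libraries than in both 6 h libraries. PSMB9 was the closest to its own replicate spread (pooled SD 0.19), and its difference was 0.31 without 24 h replicate 1. The denominators PSMB5, PSMB6 and PSMB7 fell, with log2 fold changes of -0.60, -0.56 and -0.55. A gene without change would therefore also show a higher ratio, and the difference for PSMB9 was no larger than the fall of PSMB6. The two-sided exact permutation test with 2 libraries against 2 cannot go below P = 0.333, which each of the 3 pairs reached, before and after adjustment over the 3. Even at 24 h the immunoproteasome transcripts were the minority on this scale, at 69.1% of PSMB5 for PSMB8, 6.66% of PSMB6 for PSMB9, and 7.31% of PSMB7 for PSMB10.

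The regulators of the 20S gate went both ways. PSMF1, the PI31 inhibitor of the 20S core, rose from 1600 and 1485 to 2453 and 2464, or 1.59-fold. PSME1, the alpha chain of the PA28 cap, rose from 4234 and 4505 to 6510 and 6658, or 1.51-fold. PSME2, its beta chain and usual partner, did not follow it, with 2146 and 2260 at 6 h and 1954 and 1880 at 24 h (log2 fold change -0.20 ± 0.07, edgeR adjusted P 0.0142). PSME3, the nuclear PA28 gamma, rose from 2231 and 2207 to 2841 and 2969, and PSME4, the nuclear activator PA200, fell from 2686 and 2432 to 2002.5 and 1997. No times overlapped in these 5, as in most genes tested, of which 40.8% were below and 41.0% above in both 24 h libraries. Adjusted P values of the other 4 ranged from 4.668e-09 to 0.0001115 by edgeR. The fall of PSME2 lost its adjusted P under 0.05 without 6 h replicate 2 (0.0972) and without 24 h replicate 2 (0.107), and, all by edgeR, with the length and GC trend removed (0.348, log2 fold change -0.08). In the table PSME1 overlaps EMC9, PSME2 overlaps RNF31, PSME3 overlaps BECN1 and PSME4 overlaps ACYP2, whereas PSMF1 overlaps no other row.

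**Figure D3:**
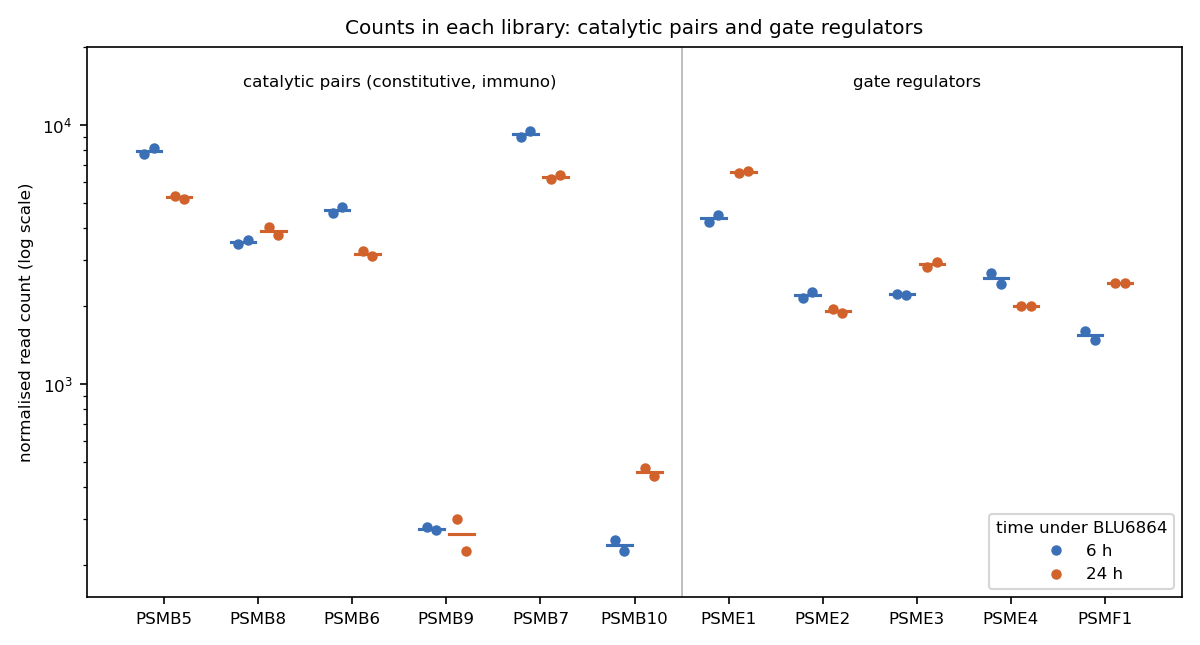
Normalised read count (log scale) in each of the 4 libraries for the 3 catalytic pairs, constitutive subunit beside immunoproteasome subunit, and for the 5 gate regulators; points are libraries and bars the mean of 2. PSMB5, PSMB6 and PSMB7 are lower at 24 h, PSMB10 is higher, and PSME1, PSME3 and PSMF1 are higher while PSME2 and PSME4 are lower.

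Of the 7 assembly chaperones, which build the particles and leave them, 3 fell and 4 did not pass the test, a share not far from the 32.6% of all genes that fell. PSMD10 (gankyrin), a chaperone of the base, fell from 2080 and 2139 to 1409 and 1306, a log2 fold change of -0.64 ± 0.07 with an edgeR adjusted P of 1.487e-08, and of -0.28 once the length and GC trend was removed. The other base chaperones PSMD9 (log2 fold change -0.25) and PSMD5 (-0.08) did not pass the test. For the core, PSMG2 had 2059 and 2221 at 6 h and 1648 and 1717 at 24 h (log2 fold change -0.35 ± 0.07), with a value of -0.01 and no call once the trend was removed. Its heterodimer partner PSMG1 had 693 and 745 at 6 h and 795 and 773 at 24 h (log2 fold change 0.12) and did not pass the test, although it did so at 0.39 once the trend was removed (edgeR adjusted P 0.000216). PSMG3 fell by 0.23 on the log2 scale (edgeR adjusted P 0.0307), a call lost with DESeq2 (adjusted P 0.15), with upper quartile scaling, and without 6 h replicate 2 or either 24 h replicate, and PSMG4 had a log2 fold change of 0.12. In all, 35 of the 46 genes fell and 4 rose, or 32 and 6 once the trend was removed. PSMC3IP, which is no proteasome subunit, had 92.8 and 96.9 at 6 h and 30.9 and 14.6 at 24 h (log2 fold change -2.06 ± 0.25).

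The levels of the members were compared only per kb of transcript, since longer transcripts give more reads. At 6 h PSMB4 stood first, with normalised counts per kb of 20307 and 22305, and PSMA7 second, with 14893 and 16373, and the libraries of these 2 did not overlap. PSMB1 (9384 and 10187) and PSMB7 (9112 and 9613) overlapped, as did PSMB3 and PSMB5. At the low end stood PSMC1, PSMD9 and PSMA2, all under 100 per kb. PSME1 moved from position 11 at 6 h to 3 at 24 h, and PSMB8 from 16 to 10. The 14 constitutive 20S subunits, present in equal number in the assembled core, had a coefficient of variation of 95.5% at 6 h and 98.3% at 24 h, and the 17 19S subunits 65.9% at both. These spreads depend on the length used, and the canonical transcripts of PSMA4, PSMA5 and PSMB2 are long for their coding sequence. With coding length, a choice made after seeing the data, and without PSMA1, PSMA2 and PSMA6, the coefficient of variation of the 20S subunits at 6 h was 43.4%. In mean abundance not divided by length, the constitutive subunits had a median at percentile 92.0 of all genes tested.

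**Figure D4:**
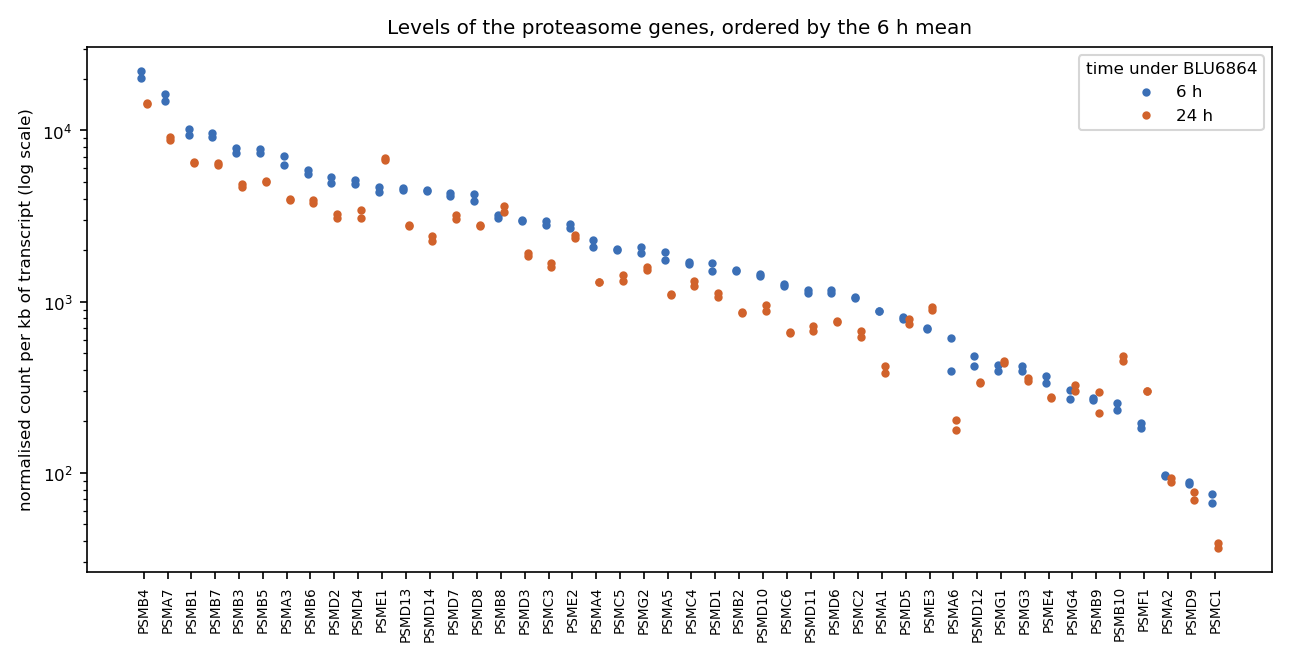
Normalised count per kb of canonical transcript (log scale) of the 46 proteasome genes in each library, ordered by the 6 h mean. PSMB4 and PSMA7 stand at the top, PSMA2, PSMD9 and PSMC1 at the bottom, and PSME1, PSME3, PSMB8, PSMB10, PSMF1 and PSMG1 are above their 6 h libraries at 24 h.

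Promoter windows of 300 bases, from 250 before to 50 after the gene start, were available from RefSeq (GRCh38.p14) for 43 of the 49 symbols and were searched on both strands for 6 short motifs. The ETS core CCGGAA was in 14 of the 26 constitutive subunits with a window (53.8%), against 29.0% of the windows of genes tested and 17.5% of all windows. The median log2 fold change was -0.69 for the 14 with it and -0.71 for the 12 without. The GC box GGGCGG was in 69.2% of the 26 and 68.2% of the windows of genes tested, the CCAAT box CCAAT in 50.0% and 36.1%, the antioxidant response element core TGACNNNGC in 19.2% and 15.0%, the STAT site TTCNNNGAA in 15.4% and 6.4%, and the interferon response core AAANNGAAA in 11.5% and 7.5%. The STAT letters can overlap an ETS match, as both contain TTC. A match is a description of letters and no evidence of binding. The windows below are read 5′ to 3′ on the gene's strand, with capitals for the motif. PSMB5, PSMD11 and PSMC6 are shown for the ETS core, which reads TTCCGG where it lies on the other strand.
PSMB5, chr14:23034945-23035020, minus strand: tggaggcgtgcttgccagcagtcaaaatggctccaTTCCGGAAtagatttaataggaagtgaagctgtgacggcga
PSMD11, chr17:32444429-32444504, plus strand: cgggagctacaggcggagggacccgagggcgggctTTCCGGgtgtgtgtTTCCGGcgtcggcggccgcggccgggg
PSMC6, chr14:52707058-52707133, plus strand: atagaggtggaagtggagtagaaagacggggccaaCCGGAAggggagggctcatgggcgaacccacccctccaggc

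PSMB10 and PSME2 are shown for the interferon response core. In PSMB10 one match starts 77 bases and another 20 bases before the gene start, and in PSME2 a match starts 27 bases before it. In all, 8 of the 43 windows (18.6%) held these letters, against 7.5% of the windows of genes tested and 10.7% of all windows. The others were those of PSME1, which rose and has its match just after the start, of PSMA4, PSMB4 and PSMD6, which fell, and of PSMB8 and PSMG4, which did not pass the test.
PSMB10, chr16:67936884-67936962, minus strand: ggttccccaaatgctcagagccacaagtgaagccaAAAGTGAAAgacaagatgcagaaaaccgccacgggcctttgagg
PSME2, chr14:24146611-24146672, minus strand: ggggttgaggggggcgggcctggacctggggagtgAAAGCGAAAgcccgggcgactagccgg

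Genes outside the name rule that act beside the proteasome were taken from 4 lists, and their counts stand beside the 32.6% of all genes tested that fell and the 33.0% that rose. Of 13 partners and further subunits of the 20S and 19S particles, 6 (46.2%) fell, 0 rose, and the median log2 fold change was -0.13. UCHL5, a deubiquitinase of the 19S particle, had 1665 and 1663 at 6 h and 1200.5 and 1103 at 24 h (log2 fold change -0.53 ± 0.07), and POMP, the chaperone that completes the core, had 4809 and 5590 at 6 h and 3666 and 3667 at 24 h (-0.50 ± 0.08). ADRM1, a ubiquitin receptor of the 19S particle, had a log2 fold change of -0.13 and did not pass (edgeR adjusted P 0.102). SHFM1, a small lid subunit, fell with a log2 fold change of -0.47, short of the fold cutoff. Of 15 genes for ubiquitin and its shuttles, 10 (66.7%) fell and 3 rose, with a median of -0.27. UBB, a polyubiquitin gene, fell from 30658 and 32054 to 19028 and 19950, UFD1L fell by 0.69 on the log2 scale, and the shuttle UBQLN4 rose by 0.48.

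NFE2L1 is a transcription factor that raises proteasome genes when activity falls, and DDI2 is the protease that releases it. Of the 8 genes on this route, which share DDI2 with the list of shuttles, 2 fell and 3 rose, which is near the shares over all genes. DDI2 had 1643 and 1626 normalised counts at 6 h and 843 and 781 at 24 h (log2 fold change -1.01 ± 0.08). NFE2L1 itself had 8307 and 7854 at 6 h and 7694 and 7480 at 24 h (log2 fold change -0.09, edgeR adjusted P 0.281) and did not pass the test. MAFF, a small MAF partner, rose from 239 and 187 to 344 and 315.

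Of 9 genes that load peptides made by the immunoproteasome or control them, 5 rose and 2 fell (22.2%). Of all genes tested, 33.0% rose and 32.6% fell. The median log2 fold change of the 9 was 0.20. TAP2, one chain of the peptide transporter, fell by 0.52 on the log2 scale, whereas its partner TAP1, which neighbours PSMB9, had a log2 fold change of 0.09 that did not pass. NLRC5, the activator of class I genes, rose by 0.44, and IRF1 had a log2 fold change of -0.09 that did not pass.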

How the data were processed

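TPC1 cells under BLU6864 gave 2 RNA-seq libraries at 6 h and 2 at 24 h. The authors aligned reads to hg19 with STAR (version 2.3 in their processing notes, another version in the methods) and deposited raw read counts per gene. They also deposited a signal, the count over a DESeq2 size factor, used only to check the columns. The deposited fold changes and p-values of the authors' comparison were not used. The counting program and strand setting are not given in the sources used here. The labels give short single-end reads, and the methods paired-end reads.

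The raw counts of the whole table entered edgeR 4.0.16 (R 4.3.3; filterByExpr, TMM, quasi-likelihood test) with time as the only factor, and P was adjusted by the Benjamini-Hochberg method over the 12876 genes tested. For normalised counts, each raw count was divided by its library's TMM effective size over the mean effective size of the 4. Total counts were 23917056 to 27457040 per library. Standard errors come from the fold change and the F statistic. Members and gene lists were chosen with earlier results of these data known. Values in each library are given for the immunoproteasome subunits, their constitutive counterparts, the gate regulators, members that changed by over 0.5 on the log2 scale with an adjusted P under 0.05, and the largest rise and fall of each group. Companion genes were named where they passed the cutoffs or led their list. Others, such as ADRM1, SHFM1, NFE2L1, TAP1, NLRC5, IRF1, UBQLN4 and PSMC3IP, were chosen after their values were seen. Results of a few listed genes are not reported here. Transcript lengths came from GENCODE v44, matched by identifier for 46 members and by symbol for 1. Alternatives were DESeq2 1.42.0, scaling by library size or by the upper quartile, no filter, a minimum of 10 counts in each library, the replicate block, an adjusted P under 0.01, each library left out, and other transcript lengths. Removal of the length and GC trend (mgcv 1.9.3, with the trend entered as an offset in edgeR for its P values), coding length, and leaving out PSMA1, PSMA2, PSMA6 and PSMC1 were chosen after seeing the data. The fits were tested on simulated data. Plots used matplotlib 3.10.9. Of the table's per-sample columns, 0 were left unused.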

Additional observations from a re-analysis of the deposited data

How the results depend on the processing

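The counts of members that fell (32 to 36, against 35) or rose (4 to 6, against 4) stayed within 1.5 times of the reported counts under every alternative run. Past the cutoffs of the methods, 28 were lower and 3 higher, with 26 to 28 lower under the other alternatives except removal of the length and GC trend, which left 17. The genes that changed their call at an adjusted P under 0.05 were PSMG3, PSMD9, PSMB8 and PSME2, and, with that trend removed, also PSMD12, PSMG1 and PSMG2. With library size alone the median log2 fold change was -0.61 for all proteasome genes, -0.75 for the constitutive 20S subunits, -0.60 for the catalytic and -0.68 for the other constitutive beta subunits, and 0.35 for the gate regulators. With upper quartile scaling it was -0.60 for the other constitutive beta subunits and 0.42 for the gate regulators. Without the length and GC trend it was -0.42 for all proteasome genes, -0.54 for the 26S subunits, -0.53 for the constitutive 20S subunits, -0.57 for the 19S subunits, -0.47 for the ATPases, -0.63 for the alpha ring, -0.55 for the other constitutive beta subunits, 0.41 for the gate regulators, and 0.088 in place of -0.053 for the 20S chaperones, which turned its sign. The cause was not tested.

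With each library left out in turn, the median ranged from -0.77 to -0.66 for the constitutive 20S subunits, -0.31 to -0.17 for the 19S chaperones, -0.12 to -0.003 for the 20S chaperones, -0.60 to -0.52 for the catalytic beta subunits, -0.69 to -0.58 for the other constitutive beta subunits, 0.10 to 0.21 for the immunoproteasome subunits, and 0.36 to 0.43 for the gate regulators, and the ratio of the 20S share from 0.586 to 0.636. Over the counts of genes tested, scaled by TMM, the share ratio was 0.687 for all proteasome genes and 1.23 for the gate regulators. The coefficient of variation of the 20S levels was 96.7% with the longest transcript and 69.2% with coding length, and that of the 19S levels 69.7% and 60.4%.

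The labels do not say what the replicate numbers mark, and the deviations of same-numbered libraries correlated at 0.0844 over genes. With the replicate block 35 members fell and 5 rose, the added one being PSMB8 (edgeR adjusted P 0.0268). The number of libraries, 2 per time point, limits the precision of every value, most for members of low count such as PSMA2, PSMB9 and PSMD9.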
